A study of Caenorhabditis elegans with 36 samples.

Results

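The far genes of Caenorhabditis elegans, far-1 to far-8, encode fatty acid and retinol binding (FAR) proteins. They were taken as the probe sets annotated with 1 of these 8 symbols alone, which gave 8 probe sets, 1 for each gene, among 17118 genes named by the array annotation. The family was chosen by symbol after the high far-3 signal of untreated daf-2 larvae, relative to N2 and daf-2;daf-16, was known from earlier results. FAR proteins are small, helix-rich, secreted lipid carriers found in nematodes, and were originally described in parasitic species. They bind fatty acids and retinol, which dissolve poorly in water and need a carrier to move between tissues. The individual function of most C. elegans members is not well defined, so the genes are described here in the order of what was measured. 

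Total RNA of synchronized first-stage (L1) larvae was measured on 36 Affymetrix arrays in 12 groups, formed by 4 strains and 3 treatments. The strains were daf-2, daf-2;daf-16, daf-16 and the wild type N2, and the alleles were not given in the labels. daf-2 codes for the worm's insulin/IGF-1 receptor. Signalling from it keeps DAF-16, a FoxO transcription factor and the product of daf-16, out of the nucleus. Larvae were treated with UV, starved, or left untreated. The labels give 4 h on food before UV and harvest 6 h after it, repeat this text for every array, and state neither the UV dose nor how long larvae were starved. Each group had 3 arrays, except daf-2;daf-16 starved with 4 and daf-16 starved with 2. The labels number the replicates but do not say that they came from separate cultures, so p-values measure the spread between these arrays, which may be technical. 

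Values were log2 signals between 2.63 and 14.9. A difference was called when its Benjamini-Hochberg adjusted p from limma, over 22548 probe sets, was under 0.05. Of the 36 arrays, 3 stood apart from the others of their groups, with SDs of the differences across probe sets of 0.327 to 0.394 for daf-16 UV replicate 3, 0.358 to 0.359 for daf-2;daf-16 untreated replicate 1, and 0.254 to 0.258 for daf-2;daf-16 starved replicate 4. Some of the results below that change with them are also given without them. Over the 168 pairs of a far gene and a tested contrast, leaving out these 3 arrays lost 1 call and added 17. In daf-2;daf-16 this keeps untreated replicates 2 and 3 and starved replicates 1 to 3. In the deposited order, untreated replicates 2 and 3 follow starved replicate 4, apart from untreated replicate 1. A difference between such sets of arrays was not tested, and without the 3 arrays it cannot be told apart from a response in daf-2;daf-16. Of the 4 probe sets annotated to daf-16, none was called lower in all 3 comparisons of daf-16 with N2, 1 was called lower after UV and under starvation (log2 differences -0.71 and -1.05), 1 was called higher in all 3 (0.57 to 0.89), and 1 was called higher in untreated and UV-treated larvae (0.65 and 0.60). The position of these probe sets relative to the mutation was not used, so they do not check the labels. Beyond the strains, the treatments moved other processes: the mean log2 signal of 30 measured molting cycle genes was 6.78 to 10.6 after UV and 5.46 to 5.85 under starvation, against 9.65 to 11.1 in untreated larvae. This signal also moved with the strain. After UV it was 6.78 to 7.47 in daf-2, against 9.48 to 9.86 in daf-2;daf-16 and 8.87 to 9.43 in N2, and in untreated larvae it was 9.65 to 9.75 in daf-2, against 9.70 to 10.8 in daf-2;daf-16 and 10.91 to 11.04 in N2. Under starvation, 10 of 12 neuron markers and 6 or 7 of 7 pharynx markers were called higher in each strain, where 23.3% of all probe sets were called higher in daf-2, 27.7% in daf-2;daf-16, 27% in daf-16 and 28.3% in N2. UV moved these markers too. The mean neuron signal was 8.11 to 8.71 after UV, against 8.66 to 8.90 in untreated larvae. The mean pharynx signal was 9.25 to 9.48 after UV, against 8.71 to 9.23 in untreated larvae. The mean signal of 9 epidermis markers was 7.50 to 7.72 in starved larvae, against 8.61 to 9.43 in untreated ones. It also moved with the strain: in untreated larvae it was 8.65 to 8.69 in daf-2, against 9.19 to 9.33 in N2. After UV it was 7.78 to 7.99 in daf-2, against 8.46 to 8.65 in N2. The epidermis list shares dpy-7 and rol-6 with the molting list, so the 2 signals are not separate measures. The mean signal of 10 intestine markers was 9.82 to 9.94 in starved larvae, against 10.01 to 10.20 in untreated ones. In the same order it was 10.57 to 11.10 and 10.57 to 10.89 for body wall muscle markers, and 6.10 to 6.35 and 6.30 to 6.54 for germ cell markers. Coelomocyte markers differed by strain under starvation: 7.66 to 7.72 in daf-2;daf-16, 7.63 in daf-16, 7.34 to 7.47 in N2 and 7.13 to 7.23 in daf-2. These are whole larvae, so a change in the share of a tissue and a change in RNA per cell cannot be told apart. The log2 difference between 3' and 5' signal of the Gapdh control, a measure of RNA integrity, was 0.29 to 0.55 over the daf-2 groups, against 0.33 to 0.91 over the N2 groups. That of the Actin control after UV was 0.87 to 1.12 in daf-2, against 0.77 to 0.93 in N2. The part of molting, tissue share and RNA integrity in the results below was not tested.

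The 8 genes differed in how far they moved. The span between the lowest and the highest of the 12 group means, on the log2 scale, was 6.16 for far-3 and 3.63 for far-7. It was 1.64 for far-5, 1.44 for far-8 and 1.37 for far-6. It was 0.89 for far-2, 0.87 for far-4 and 0.28 for far-1. The far-1 probe set was brighter than 99.9% of the probe sets, and saturation was not recorded in the values used here. The far-4 probe set was dim, with 10.4% of the probe sets below it. The probe sets of far-1 and far-3 are of a type that can match more than 1 transcript. In the RefSeq gene order of assembly WBcel235, far-5, far-3 and far-4 are adjacent on chromosome V, far-1 and far-2 are adjacent on chromosome III, far-8 lies elsewhere on chromosome III, far-6 lies on chromosome IV and far-7 lies on chromosome II. The annotated spans of far-5 and far-3 overlap, so their signals are uncertain to the extent that RNA of one reaches probes of the other. 

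far-3 was far higher in daf-2 larvae than in the other strains, under each treatment. After UV, its log2 signal was 10.47, 11.03 and 11.19 in daf-2, against 5.62, 5.64 and 5.77 in daf-2;daf-16 and 7.02, 7.02 and 7.03 in N2. Under starvation it was 8.73, 8.76 and 9.46 in daf-2, against 5.04, 5.03, 5.16 and 4.30 in daf-2;daf-16 and 5.92, 6.25 and 6.45 in N2. Untreated larvae had 9.83, 9.74 and 9.38 in daf-2, against 5.26, 4.41 and 4.54 in daf-2;daf-16 and 5.42, 5.24 and 5.15 in N2. Every daf-2 array lay above every array of the other strains. The untreated differences, 4.38 from N2 and 4.91 from daf-2;daf-16, were known when the genes were chosen and are descriptions with no test. The other treatments use other arrays. far-3 was 14.7-fold higher in daf-2 than in N2 after UV (log2 difference 3.87 ± 0.21 SE, limma adjusted p = 1.2e-15) and 6.86-fold higher under starvation (2.78 ± 0.21 SE, adjusted p = 1.4e-11). Relative to daf-2;daf-16 it was 37.2-fold higher after UV (5.22 ± 0.21 SE, adjusted p = 1.8e-19) and 17.1-fold higher under starvation (4.10 ± 0.19 SE, adjusted p = 1.4e-17). Without the 3 arrays that stood apart, the starved difference from daf-2;daf-16 was 3.90.

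**Figure D1:**
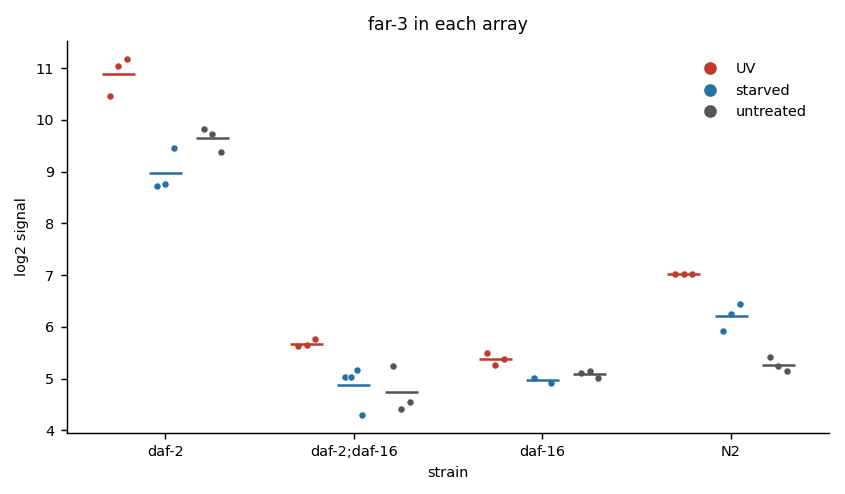
Log2 signal of far-3 in each array (points) with the group mean (line), by strain and, within a strain, UV, starved and untreated from left to right. All daf-2 arrays lie between 8.73 and 11.19, and no array of another strain exceeds 7.03.

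In treated larvae, far-3 was also lower in daf-16 single mutants than in wild type. After UV it was 5.50, 5.27 and 5.39 in daf-16, against the N2 values above (log2 difference -1.64 ± 0.21 SE, adjusted p = 2.2e-06, and -1.64 without daf-16 UV replicate 3). Under starvation it was 5.01 and 4.92 in daf-16 (-1.24 ± 0.23 SE, adjusted p = 3.7e-04). The groups did not overlap in either comparison. In untreated larvae, far-3 was 5.11, 5.14 and 5.02 in daf-16, just below the lowest N2 array at 5.15, and the difference of -0.18 ± 0.21 SE was not called (adjusted p = 9.3e-01). The order of the 12 group means of far-3 began with the 3 daf-2 groups, followed by N2 UV, N2 starved, daf-2;daf-16 UV and daf-16 UV. The remaining 5 groups had means from 4.74 to 5.27. Of neighbours in this order, daf-2 starved overlapped daf-2 untreated, N2 untreated overlapped daf-16 UV, and daf-2;daf-16 starved overlapped both daf-16 starved and daf-2;daf-16 untreated.

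UV raised far-3 in 3 of the 4 strains. The log2 difference between UV-treated and untreated larvae was 1.25 ± 0.21 SE in daf-2 (adjusted p = 1.4e-05), 0.94 ± 0.21 SE in daf-2;daf-16 (1.4e-03) and 1.75 ± 0.21 SE in N2 (4.7e-08). In daf-16 it was 0.29 ± 0.21 SE and was not called (3.7e-01), although all 3 UV arrays exceeded the 3 untreated ones. Without the 3 arrays that stood apart, the rise in daf-2;daf-16 was 1.20. The UV arrays of that strain had 5.62, 5.64 and 5.77. Untreated replicate 1, which that fit drops, had 5.26, and replicates 2 and 3 had 4.41 and 4.54. The size of the rise thus depends on which untreated arrays are used, and it is smaller against replicate 1. The rise in daf-16 was smaller than that in N2, with a difference of responses of -1.46 ± 0.29 SE (adjusted p = 9.4e-03). The response of daf-2 did not differ detectably from that of N2 (-0.50 ± 0.29 SE, 4.6e-01) or from that of daf-2;daf-16 (0.30 ± 0.29 SE, 7.3e-01).

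Under starvation far-3 had opposite directions in daf-2 and N2. The responses in daf-2, and their differences from other strains, subtract the untreated daf-2 arrays whose high far-3 signal was known when the family was chosen. That choice favours a fall under starvation, so their p-values are not independent support. In daf-2 it fell by 0.67 on the log2 scale (SE 0.21, adjusted p = 8.4e-03), although the groups overlapped, since starved replicate 3 at 9.46 exceeded untreated replicate 3 at 9.38. This call was lost without starved replicate 1 (-0.54, adjusted p = 0.06) and without starved replicate 2 (-0.55, adjusted p = 0.057). In N2 far-3 rose, with every starved array above every untreated one (log2 difference 0.94 ± 0.21 SE, adjusted p = 2.3e-04). The responses of daf-2 and N2 differed by -1.60 ± 0.29 SE (adjusted p = 1.8e-04), and those of daf-2 and daf-2;daf-16 by -0.81 ± 0.28 SE (5.4e-02). That last difference passed the threshold without daf-2 untreated replicate 3 (-0.95), daf-2 starved replicate 3 (-1.05), daf-2;daf-16 untreated replicate 1 (-1.07) or daf-2;daf-16 starved replicate 4 (-1.01). Without the 3 arrays that stood apart it was -1.27 (adjusted p = 0.00022). The response was not called in daf-16 (-0.12 ± 0.23 SE, 6.8e-01) or in daf-2;daf-16 (0.15 ± 0.19 SE, 5.4e-01). In daf-2;daf-16 it was 0.60 and called without the 3 arrays that stood apart (adjusted p = 0.0048). That fit sets starved replicates 1 to 3 (5.04, 5.03 and 5.16) against untreated replicates 2 and 3 (4.41 and 4.54). The arrays it drops were 5.26 in untreated replicate 1 and 4.30 in starved replicate 4. Both the 0.60 and the -1.27 therefore depend on which daf-2;daf-16 arrays are left out.

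Of 7099 probe sets with 1 symbol whose group means spanned at least 1 on the log2 scale, the one whose profile over the 12 groups was most like far-3 was F15B9.6, with a Pearson r of 0.992. H39E23.3 followed with 0.983 and Y9C9A.16 with 0.971. These correlations are over 12 group means, which share the arrays, and are given as descriptions. F15B9.6 also lies on chromosome V, with 3 protein-coding genes between it and far-4 in the RefSeq order. Leaving out the 3 daf-2 groups, its r with far-3 over the remaining 9 group means was 0.926. Its log2 difference between daf-2 and N2 was 3.36 after UV, 1.96 under starvation and 3.68 in untreated larvae. H39E23.3 differed by 4.97, 3.51 and 3.88 in the same comparisons. Among the genes beside the far cluster, inft-2, a formin gene, differed between daf-2 and N2 by 0.12 after UV (adjusted p = 0.47) and shw-3, a potassium channel gene, by 0.05 (adjusted p = 0.8). F15B9.10, on the far-4 side, was higher in daf-2 after UV by 0.57 (adjusted p = 0.00011), and F15B9.8, on the far-5 side, was lower by 2.91 (log2 difference -2.91, adjusted p = 2.9e-05).

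**Figure D2:**
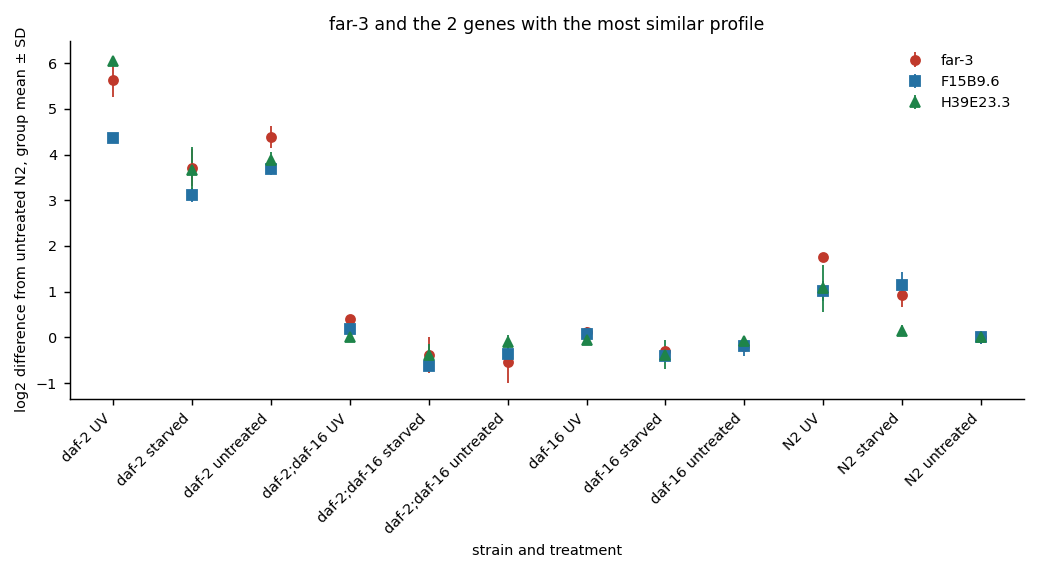
Group means (points) with SD (bars) of far-3, F15B9.6 and H39E23.3 as log2 differences from each gene's own mean in untreated N2, for the 12 groups. Each gene is highest in the 3 daf-2 groups, and starved N2 lies 0.94 above untreated N2 for far-3, 1.16 above for F15B9.6 and 0.15 above for H39E23.3.

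The dim far-4 was higher in daf-2 than in the other strains when larvae were treated. After UV its log2 signal was 4.32, 4.14 and 3.96 in daf-2, against 3.53, 3.40 and 3.29 in daf-2;daf-16 and 3.38, 3.60 and 3.72 in N2. Under starvation it was 4.42, 4.12 and 4.28 in daf-2, against 3.57, 3.86, 3.46 and 3.65 in daf-2;daf-16 and 3.70, 3.66 and 3.82 in N2. The daf-2 arrays lay above those of both other strains in each case. The log2 differences were 0.57 ± 0.12 SE from N2 (adjusted p = 7.1e-04) and 0.73 ± 0.12 SE from daf-2;daf-16 (2.4e-05) after UV. They were 0.54 ± 0.12 SE (2.2e-03) and 0.64 ± 0.11 SE (4.6e-05) under starvation. In daf-2, far-4 rose after UV by 0.55 (adjusted p = 5.5e-04) and under starvation by 0.69 (1.3e-05). In N2 it rose under starvation by 0.33 (2.2e-02), a call that was lost without untreated replicate 1, untreated replicate 2 or starved replicate 3 (adjusted p = 0.066 to 0.09). The responses of daf-2 exceeded those of daf-2;daf-16 by 0.63 after UV (2.0e-02) and 0.54 under starvation (2.7e-02). The UV difference was lost without any 1 of 5 arrays (daf-2 untreated 1 and UV 1, daf-2;daf-16 untreated 2 and 3 and UV 3), with adjusted p = 0.059 to 0.078. The starvation difference was lost without any 1 of 6 arrays (daf-2 untreated 1, starved 1 and 3, daf-2;daf-16 untreated 2 and 3 and starved 3), with adjusted p = 0.054 to 0.09.

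far-5, whose annotated span meets that of far-3, did not follow far-3. Starvation lowered it in each of the 4 strains. Starved daf-2 larvae had 5.24, 5.15 and 5.33, against 6.60, 6.69 and 6.78 in untreated daf-2 larvae. Starved N2 larvae had 5.41, 4.96 and 5.42, against 6.47, 6.23 and 6.33 in untreated N2 larvae. No starved array overlapped the untreated arrays of its strain, and the log2 differences were -1.45 in daf-2 (adjusted p = 3.3e-11), -1.40 in daf-2;daf-16 (8.0e-12), -1.25 in daf-16 (6.1e-09) and -1.08 in N2 (1.1e-08). UV lowered far-5 in daf-2, to 5.71, 5.82 and 5.72 (log2 difference -0.94 ± 0.13 SE, adjusted p = 7.6e-07). In N2 the UV-treated arrays had 6.27, 5.81 and 6.01, with a difference of -0.32 ± 0.13 SE (6.9e-02) that was called without UV replicate 1 (-0.44, adjusted p = 0.016). The UV response was -0.11 in daf-2;daf-16 (7.0e-01) and -0.05 in daf-16 (8.7e-01), neither called. The UV response of daf-2 was lower than that of daf-2;daf-16 by 0.83 (difference -0.83 ± 0.18 SE, 3.2e-03). Against that of N2 the difference was -0.63 ± 0.18 SE (4.2e-02), and this call was lost in 9 of the 12 fits that each left out 1 of its arrays (adjusted p = 0.057 to 0.13). It held only without N2 untreated replicate 1, N2 UV replicate 2 or daf-2 untreated replicate 1. Among UV-treated larvae, far-5 in daf-2 lay below that in daf-2;daf-16 (log2 difference -0.61, 8.3e-04). Over the 12 group means, far-5 had a Pearson r of 0.943 with the mean signal of the molting cycle genes. The 3 genes most like it were F56C11.5 (0.993), fbn-1 (0.988), a fibrillin-like gene of the apical matrix that is itself in the molting list, and Y58A7A.2 (0.987).

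far-7 was the member that starvation raised most in each strain. Starved daf-2 larvae had 11.72, 11.63 and 11.81, against 9.84, 9.91 and 9.95 in untreated daf-2 larvae. Starved N2 larvae had 11.88, 12.08 and 11.99, against 8.64, 8.25 and 8.23 in untreated N2 larvae. Starved values lay between 11.52 and 12.08 over the 4 strains, whereas the untreated daf-2 arrays stood above all other untreated arrays. The log2 rise was 1.82 ± 0.12 SE in daf-2 (adjusted p = 3.4e-14), 2.92 ± 0.11 SE in daf-2;daf-16 (2.3e-20), 3.22 ± 0.14 SE in daf-16 (4.0e-19) and 3.61 ± 0.12 SE in N2 (5.8e-22), or 12.2-fold in N2. The rise in daf-2 was smaller than in N2 (difference -1.79 ± 0.17 SE, 6.6e-09) and smaller than in daf-2;daf-16 (-1.09 ± 0.17 SE, 2.2e-05). In untreated larvae the difference between daf-2 and N2 was 1.53 and that from daf-2;daf-16 was 1.20, as descriptions. In starved larvae the difference of daf-2 from N2 was -0.26 (2.0e-01) and that from daf-2;daf-16 was 0.11 (5.7e-01), neither called. With only the groups compared, the difference from N2 was called (3.9e-02).

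UV raised far-7 too, by less. UV-treated daf-2 larvae had 10.37, 10.43 and 10.45. UV-treated N2 larvae had 9.47, 9.41 and 9.63. All UV arrays exceeded the untreated arrays of their strain. The log2 rise was 0.52 in daf-2 (adjusted p = 1.4e-03), 1.00 in daf-2;daf-16 (3.4e-07), 0.78 in daf-16 (1.7e-05) and 1.13 in N2 (1.0e-08). far-7 was the only member called higher after UV in daf-16. Its rise in daf-2 was smaller than in N2 by a difference of -0.61 ± 0.17 SE (3.5e-02), a call lost in 9 of the 12 fits that each left out 1 of its arrays (adjusted p = 0.05 to 0.12). It held only without N2 untreated replicate 1, N2 UV replicate 1 or N2 UV replicate 2. Its difference from the rise in daf-2;daf-16 was -0.48 ± 0.17 SE (1.2e-01), and -0.62 and called without the 3 arrays that stood apart (adjusted p = 0.0094). After UV, far-7 was higher in daf-2 than in N2 by 0.92 (1.1e-06) and higher than in daf-2;daf-16 by 0.72 (4.3e-05). In daf-16 it was below N2 (-0.37, 3.3e-02), a call lost without N2 UV replicate 2 or 3 or daf-16 UV replicate 1 or 2 (adjusted p = 0.053 to 0.15), and with only the groups compared (1.0e-01). The Pearson r of far-7 with the mean molting signal was -0.976 over the 12 group means. The genes most like far-7 were T16H12.9 (0.997), T19D12.2 (0.995) and C03G6.17 (0.993), and its r with far-5 was -0.88.

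**Figure D3:**
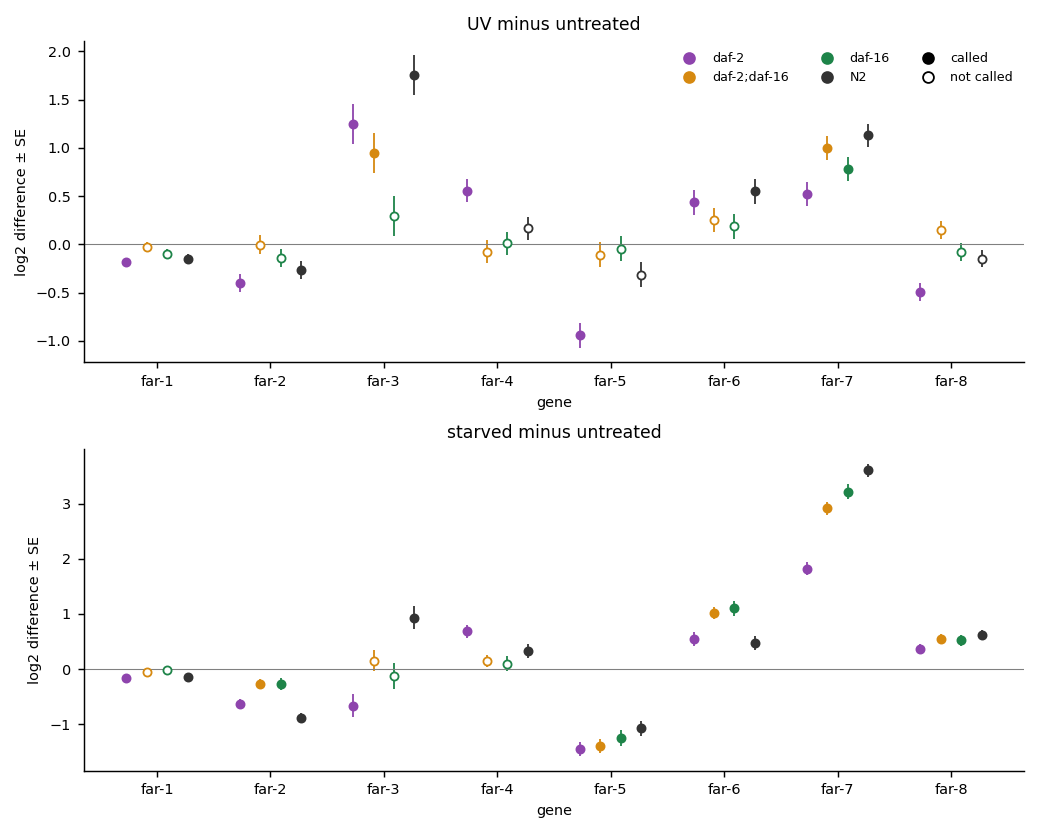
Log2 difference (points) with SE (bars) of UV-treated minus untreated larvae (upper panel) and starved minus untreated larvae (lower panel) for each far gene in 4 strains. Filled points passed the adjusted p threshold of 0.05. Starvation raised far-6, far-7 and far-8 and lowered far-2 and far-5 in all 4 strains, while far-3 rose in N2 and fell in daf-2.

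far-6 rose under starvation in all 4 strains. Starved daf-16 larvae had 8.61 and 8.59, against 7.47, 7.64 and 7.38 in untreated daf-16 larvae. Starved daf-2;daf-16 larvae had 8.42, 8.40, 8.38 and 9.08, against 7.68, 7.48 and 7.51 in untreated ones. Starved N2 larvae had 8.07, 7.87 and 7.92, against 7.68, 7.40 and 7.37 in untreated N2 larvae. No starved and untreated groups overlapped, and the 9.08 of replicate 4 stood apart from its group. The log2 rise was 0.55 in daf-2 (adjusted p = 4.9e-04), 1.02 in daf-2;daf-16 (4.4e-09; 0.91 without the 3 arrays that stood apart), 1.10 in daf-16 (4.2e-08) and 0.47 in N2 (1.8e-03). Both strains with a daf-16 mutation had more far-6 signal than their counterparts under starvation: daf-16 exceeded N2 by 0.64 ± 0.14 SE (2.4e-03), and daf-2 lay below daf-2;daf-16 (-0.80 ± 0.12 SE, 2.6e-06, and -0.63 without the 3 arrays). The difference between the starvation responses of daf-16 and N2, 0.63, was not called (6.5e-02) but passed with only the groups compared (1.8e-02) and without the 3 arrays (0.0032). UV raised far-6 in daf-2 by 0.43 (8.9e-03) and in N2 by 0.55 (9.1e-04), the daf-2 call being lost without untreated replicate 2 (adjusted p = 0.06). After UV, far-6 was lower in daf-2 (-0.37, 3.6e-02) and in daf-16 (-0.35, 4.9e-02) than in N2. The daf-2 call was lost without any 1 of its 6 arrays, and the daf-16 call without any of its arrays other than daf-16 UV replicate 2. In the RefSeq order far-6 has fat-2 and fat-1 on one side, which encode fatty acid desaturases. fat-2 rose under starvation by 0.93 to 1.27 and fat-1 by 0.64 to 0.83 over the 4 strains, all called, where 43% to 54.5% of all probe sets were called in either direction. On the other side, pqn-74 fell in daf-2;daf-16 (-0.31) and daf-16 (-0.63), and rec-8 fell in those strains (-0.37 and -0.55) and in N2 (-0.63). The genes whose profiles were most like far-6 were B0554.5 (r = 0.975), lido-9 (0.973) and Y57A10A.14 (0.968). Over the 12 group means, the r of far-6 with the mean molting signal was -0.72. For far-1, far-3, far-4 and far-8 it was 0.33, -0.20, -0.62 and -0.47.

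far-8 also rose under starvation in all 4 strains, by 0.36 in daf-2 (adjusted p = 1.6e-03), 0.54 in daf-2;daf-16 (1.9e-06), 0.52 in daf-16 (5.8e-05) and 0.61 in N2 (7.3e-07). It was lower in daf-2 than in N2 and daf-2;daf-16 under each treatment. Untreated larvae had far-8 signals of 10.28, 10.32 and 10.22 in daf-2, as a description with no test. Those of untreated daf-2;daf-16 were 10.54, 10.36 and 10.40, and those of untreated N2 were 10.72, 10.52 and 10.59. After UV it was 9.82, 9.73 and 9.79 in daf-2, against 10.64, 10.58 and 10.52 in daf-2;daf-16 and 10.56, 10.33 and 10.49 in N2. Under starvation it was 10.68, 10.68 and 10.54 in daf-2, against 11.03, 11.17, 11.11 and 10.59 in daf-2;daf-16 and 11.23, 11.13 and 11.31 in N2. The daf-2 arrays lay below the others except under starvation, where daf-2;daf-16 replicate 4 fell among them. After UV, the log2 difference of daf-2 was -0.68 ± 0.09 SE from N2 (1.3e-06) and -0.80 ± 0.09 SE from daf-2;daf-16 (4.8e-08). Under starvation it was -0.59 ± 0.09 SE (3.1e-05) and -0.34 ± 0.09 SE (3.4e-03). The starved difference from daf-2;daf-16 was not called when only the groups compared were fitted (adjusted p = 5.6e-02), and was -0.47 and called without the 3 arrays that stood apart. In daf-2, UV lowered far-8 by a log2 difference of -0.50 (7.9e-05), a response lower than that of daf-2;daf-16 (-0.64 ± 0.13 SE, 1.3e-03). In N2 the UV response was -0.15 (2.5e-01) and the difference of the daf-2 response from it, -0.35, was not called (1.5e-01), but passed with only the groups compared (4.3e-02) and without the 3 arrays (0.0095). The starvation response of daf-2 minus that of daf-2;daf-16 was -0.18 (3.8e-01), and -0.37 and called without the 3 arrays (0.0059). That call depends on which daf-2;daf-16 arrays are left out. Its most similar genes were scl-14 (r = 0.969), Y42G9A.2 (0.941) and Y54G2A.10 (0.936).

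**Figure D4:**
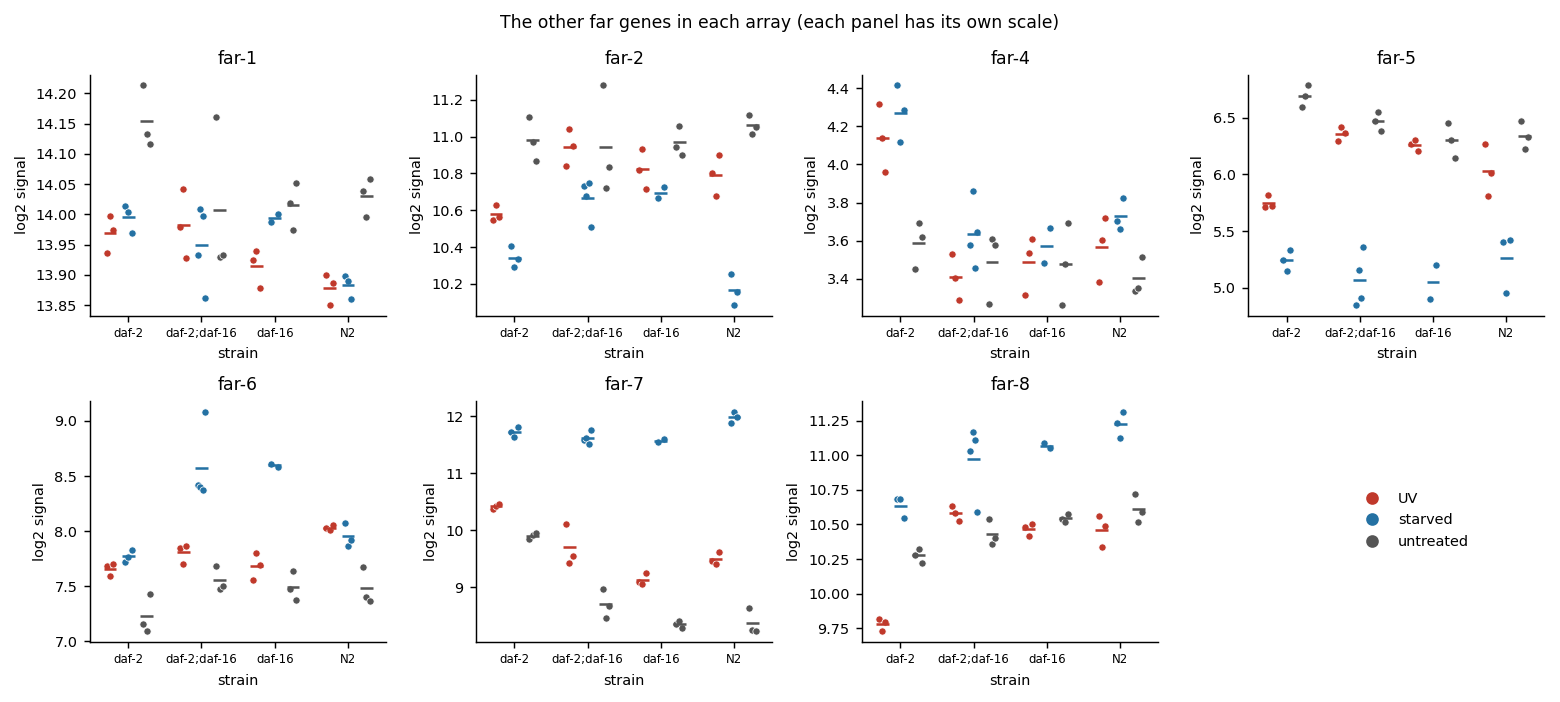
Log2 signal of the other 7 far genes in each array (points) with group means (lines), by strain and, within a strain, UV, starved and untreated from left to right; each panel has its own scale. far-5 is lowest and far-7 highest in starved larvae of each strain, and the 9.08 of far-6 in one starved daf-2;daf-16 array stands apart.

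far-2 was lowered by starvation in all 4 strains, with the largest difference in N2. Starved N2 larvae had 10.25, 10.09 and 10.16, against 11.12, 11.01 and 11.05 in untreated N2 larvae (log2 difference -0.89 ± 0.09 SE, adjusted p = 6.2e-10). The fall was -0.64 in daf-2 (7.8e-07), -0.28 in daf-2;daf-16 (7.7e-03) and -0.27 in daf-16 (3.1e-02). In daf-2;daf-16 the call was lost without untreated replicate 1 (-0.11, adjusted p = 0.24) and without the 3 arrays that stood apart (-0.06). Without those arrays the responses of daf-2 were lower than those of daf-2;daf-16 by differences of -0.57 after UV (adjusted p = 8.7e-05) and -0.58 under starvation (6.7e-05), which with all arrays were -0.40 (8.1e-02) and -0.36 (6.3e-02). Untreated daf-2;daf-16 replicate 1, which that fit drops, had 11.28, against 10.72 and 10.84 in replicates 2 and 3. The fall in daf-2;daf-16 and these differences therefore depend on which untreated arrays are kept. In daf-16 the starvation call was lost without untreated replicate 2, starved replicate 1 or starved replicate 2 (adjusted p = 0.074 to 0.15). The response of daf-16 was less negative than that of N2 by 0.62 ± 0.14 SE (7.8e-03), which was lost without daf-16 starved replicate 2 (adjusted p = 0.063). Starved far-2 was higher in daf-16, at 10.67 and 10.73, than in N2, by 0.53 ± 0.11 SE (8.3e-04). Its signal in daf-2 was below that in daf-2;daf-16 after UV (-0.36, 6.5e-03) and under starvation (-0.32, 6.5e-03), the UV call being lost without daf-2;daf-16 UV replicate 2 (adjusted p = 0.054). UV lowered far-2 in daf-2 (-0.40, 1.3e-03) and in N2 (-0.27, 3.0e-02), the N2 call being lost without untreated replicate 1 or 3 or UV replicate 2 (adjusted p = 0.061 to 0.16). Its r with the molting signal was 0.841. The adjacent far-1 had 4 called differences between -0.19 and -0.15, in a probe set near the top of the signal range, where saturation would make differences smaller and was not tested: UV in daf-2 (-0.19, 3.2e-03) and N2 (-0.15, 1.5e-02), and starvation in daf-2 (-0.16, 6.5e-03) and N2 (-0.15, 9.0e-03). The UV call in N2 was lost without untreated replicate 3 or UV replicate 2 (adjusted p = 0.061 and 0.065), and the starvation call in daf-2 without untreated replicate 1 (adjusted p = 0.051).

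Counted over the family, starvation changed 8 of 8 far genes in daf-2 and in N2, where 43% and 53.1% of all probe sets were called, and 5 of 8 in daf-2;daf-16 and in daf-16, where 54.5% and 51.2% were called. The last pair of shares is near the background. In each strain the called genes included far-6, far-7 and far-8 higher and far-2 and far-5 lower. UV changed 8 of 8 in daf-2 (25% of all probe sets called), with 4 higher (12.3% of all) and 4 lower (12.6%). It changed 2 of 8 in daf-2;daf-16 (14.6%), 1 of 8 in daf-16 (19%) and 5 of 8 in N2 (28.8%). The higher members in daf-2 were far-3, far-4, far-6 and far-7, and the lower ones far-1, far-2, far-5 and far-8. The median log2 difference of the 8 genes after UV in daf-2 was 0.12, against 0.02 over all probe sets.

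After UV, 5 of 8 far genes differed between daf-2 and N2 (18.8% of all probe sets called), 6 of 8 when daf-2 was set against daf-2;daf-16 (13.6%) and 3 of 8 between daf-16 and N2 (19.3%). Under starvation the counts were 3 of 8 (10.2%), 5 of 8 (22.9%) and 3 of 8 (7.75%) in the same order of comparisons. far-3 and far-4 were higher and far-8 was lower in daf-2 in all 4 comparisons with N2 and daf-2;daf-16, although the starved far-8 call against daf-2;daf-16 was lost with only the groups compared. In untreated larvae, 0 of 8 differed between daf-16 and N2 (1.43% called), and 0 of 8 had an unadjusted p under 0.05 in limma. The UV response differed between daf-2 and N2 for 2 of 8 (4.66%), for 3 of 8 when daf-2 was set against daf-2;daf-16 (5.45%) and between daf-16 and N2 for 1 of 8 (1.85%). The starvation response differed for 2 of 8 (14.8%), 2 of 8 (12.8%) and 1 of 8 (3%) in the same comparisons. The first of these counts includes far-3, for which the p-value is not independent support, as given above. Comparisons within a treatment share the daf-2 or N2 arrays. Without the 3 arrays that stood apart, the UV response of daf-2 minus that of daf-2;daf-16 was also called for far-1, far-2 and far-7. The same difference of starvation responses was then also called for far-1, far-2, far-3 and far-8. These added calls depend on which daf-2;daf-16 arrays are left out, with the limit given for the 3 arrays above. Some other counts of this paragraph rose too.

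**Figure D5:**
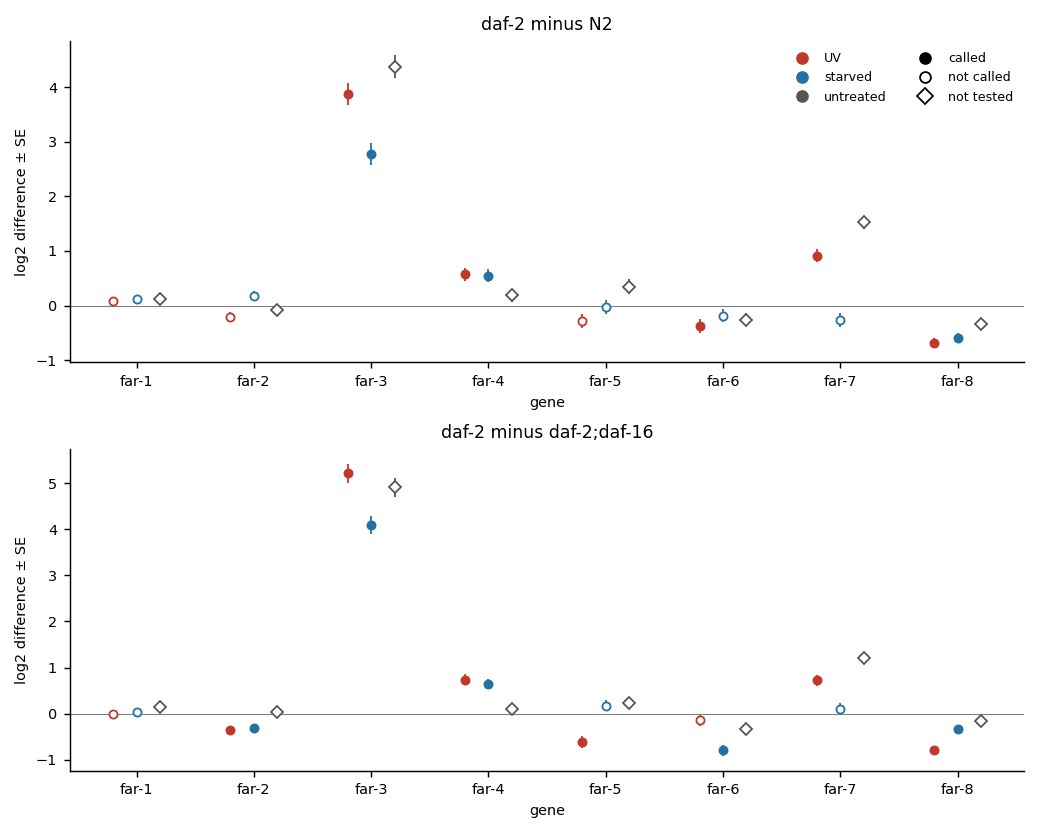
Log2 difference (points) with SE (bars) of daf-2 minus N2 (upper panel) and daf-2 minus daf-2;daf-16 (lower panel) for each far gene, in UV-treated, starved and untreated larvae. Filled circles passed the adjusted p threshold of 0.05, open circles did not, and diamonds were not tested. far-3 stands at 2.78 to 5.22, and far-4 lies above 0 and far-8 below 0 throughout.

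Other lipid carriers were also moved by starvation, in both directions. Of the 9 intracellular lipid binding proteins (lbp-1 to lbp-9), 3 were called higher in each strain, and 5 were called lower in daf-2 and 4 in each of the other strains. Over all probe sets, the share called higher was 23.3% in daf-2, 27.7% in daf-2;daf-16, 27% in daf-16 and 28.3% in N2, and the share called lower was 19.7%, 26.8%, 24.2% and 24.7% in the same order. Their median log2 difference was -0.51 in daf-2, -0.09 in daf-2;daf-16, -0.18 in daf-16 and -0.21 in N2, against medians of -0.05 to 0.03 over all probe sets. lbp-1 rose by 2.74 in daf-2, 3.03 in daf-2;daf-16, 2.92 in daf-16 and 3.26 in N2. lbp-4 fell, with log2 differences of -1.74, -2.24, -1.88 and -2.18 in the same order. lbp-7 rose both under starvation (0.76 to 1.60) and after UV (0.54 to 1.23) in all 4 strains. Of 6 acyl-CoA binding proteins, which carry activated fatty acids in the cell, 1 was called higher and 2 or 3 lower in each strain (medians -0.28 to -0.26): acbp-1 (-1.93 to -1.53) and acbp-3 (-3.62 to -2.65) fell and maa-1 (1.04 to 1.81) rose in each strain. The cholesterol transporters ncr-1 (0.71 to 1.04) and ncr-2 (0.68 to 1.38) rose under starvation in each strain, while the third sterol transport gene listed, heh-1, fell in daf-2 (-0.39) and N2 (-0.43). The median of these 3 genes was 0.68 to 1.04. Of 8 measured genes of yolk lipoproteins and their handling, dsc-4, a microsomal triglyceride transfer protein homologue, fell under starvation (-1.23 to -0.88) and rose after UV (0.29 to 0.77) in each strain, and the median of the 8 under starvation was -0.06 to -0.05. Between daf-2 and N2, 3 of 9 lbp genes were called higher after UV (11.8% of all probe sets).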

How the data were processed

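The deposited table held log2 signals of 22625 probe sets on 36 arrays, which the submitters' processing notes credit to Affymetrix Power Tools (version not given). The summary algorithm and the genome build: not given in the sources used here. No dates or batches were given in the labels. After leaving out 77 control probe sets, limma 3.58.1 (R 4.3.3) was fitted to the log2 values with 1 mean per group over all 36 arrays (24 residual degrees of freedom, eBayes with an intensity trend). p-values were adjusted by Benjamini-Hochberg over 22548 probe sets within each of 23 contrasts, 21 of them tested on the far genes. The annotation gave 1 symbol to 20766 probe sets, several to 887 and none to 895. The number of arrays limits the precision. The fit was tested on simulated data: of 67 probe sets changed 1.5-fold and 67 changed 2-fold, 50 and 63 were recovered for the UV response in N2, and 27 and 60 for the starvation response of daf-2 minus that of N2. In that setting, smaller differences of responses were often missed. The simulation changed a far smaller share of probe sets than the 28.8% and 14.8% called in these contrasts, and its noise was independent between arrays. Recovery in the real data can therefore differ. The far genes, the contrasts and the gene lists were chosen with earlier results of these data known. Named are the far genes, daf-2 and daf-16, the 3 genes with the most similar profile for members spanning at least 1, the listed lipid carriers and the nearest genes. Promoter sequences were not analysed here.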

Additional observations from a re-analysis of the deposited data

Results flagged for a closer look

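In the starved daf-2;daf-16 group, the only group with at least 4 arrays, 2 of the 8 far genes had an array far from the others: replicate 4 had the low far-3 signal of 4.30 and the high far-6 signal of 9.08. The gap to the nearest array was 0.84 of the range of the group for far-3 and 0.94 for far-6. Chance is taken to flag about 1 in 20 groups under this rule, a rate that was set and not computed from these data. The array stood apart over all probe sets, so this rate is no yardstick for the 2 genes. Its far-3 signal was near the 4.41 and 4.54 of untreated daf-2;daf-16 replicates 2 and 3, which follow it in the deposited order. Untreated replicate 1, at 5.26, was near starved replicates 1 to 3 (5.03 to 5.16). The far-6 signal had no such match, with untreated arrays at 7.68, 7.48 and 7.51. Whether the strain's arrays form separate sets was not tested. The share of all probe sets flagged in this array is not given here.

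The response to a treatment differed between strains in 11 tests of the difference itself (limma, adjusted p under 0.05). For far-3, the UV response of daf-16 minus that of N2 was -1.46, and the starvation response of daf-2 minus that of N2 was -1.60. The latter subtracts the untreated daf-2 arrays known to be high when the family was chosen, so its p-value is not independent support. For far-7, the starvation response of daf-2 was lower than that of N2 (-1.79) and of daf-2;daf-16 (-1.09), and its UV response lower than that of N2 (-0.61). For far-5, the UV response of daf-2 was lower than that of daf-2;daf-16 (-0.83) and of N2 (-0.63). For far-8, the UV response of daf-2 minus that of daf-2;daf-16 was -0.64. For far-4, the same difference was 0.63 after UV and 0.54 under starvation. For far-2, the starvation response of daf-16 minus that of N2 was 0.62. Some of these calls were lost when 1 array was left out. Those of far-5 and far-7 for the UV responses of daf-2 and N2 were each lost in 9 of 12 fits. The far-4 calls were lost in 5 of 12 fits for UV and 6 of 13 for starvation, and the far-2 call in 1 of 11.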

How the results depend on the processing

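Of 168 pairs of a far gene and a tested contrast, 78 were called. Of these, 60 kept the call under every alternative that measured them, 18 lost it under 1 or more, 24 others gained it under 1 or more, and 0 reversed; the cause was not tested. The far-3 differences of daf-2 from N2 and from daf-2;daf-16 after UV and under starvation were among the 60. The 6 differences of UV responses called became 10 with array weights, 10 without the 3 arrays that stood apart (a choice made after seeing the data), and 3 to 9 when leaving out 1 array, with 3 left without daf-2 UV replicate 1. The 5 differences of starvation responses called became 14 with array weights, 11 with the replicate block, 12 without the 3 arrays, and 4 to 10 when leaving out 1 array, with 10 without daf-2;daf-16 untreated replicate 1 or starved replicate 4. Pairs called ranged, when leaving out 1 array, from 25 to 26 for starvation (26 with all arrays), 14 to 17 for UV (16), 11 to 13 for strains after UV (14) and stayed 11 for strains under starvation. In untreated larvae, far-3 differed by 4.29 to 4.51 for daf-2 against N2 and by 4.75 to 5.17 for daf-2 against daf-2;daf-16 when leaving out 1 array. The replicate numbers did not pair the arrays: deviations of same-numbered arrays had a median r of 0.0019, and 10 of 36 arrays correlated best with their own number. Without shared probe sets far-1 and far-3 were not measured, and without the dimmest 33.3% of probe sets far-4 was not. Counts over all probe sets moved by over 1.5 times in 13 of 23 contrasts with array weights, 7 of 23 with only the groups compared, 5 of 23 without the 3 arrays, and 27 of 174 fits leaving out 1 array. With only the groups compared, the 4362 called for daf-16 against N2 after UV became 333 and the 417 for the difference of their UV responses became 38, while array weights gave 2444 for that difference and 763, against 322, for untreated daf-16 against N2. Removing shared probe sets left fewer to test, and all 23 counts were 0.448 to 0.655 of the main ones.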
